A study of Mus musculus with 8 samples.

Results

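The genes described here are 34 genes of protein import, folding, quality control and stress signalling in the endoplasmic reticulum (ER), chosen by symbol from the 53465 gene identifiers of a mouse RNA-seq count table. All 34 were found and all 34 passed the filter on low counts, as did 14369 genes in all. They were measured in mesenchymal stem cells (MSCs, the cells that give rise to bone, cartilage and fat) from the bones of wild-type male C57BL/6 N mice aged 3 to 5 months. Cells were released from bone chips with collagenase, grown at 2% O2, passaged on day 5 and sorted on day 12 as CD45-/TER-119-/CD140a+/Sca-1+, and the sorted population was then divided. In the hypoxia group (n = 4) cells stayed at 2% O2 and in the normoxia group (n = 4) they were moved to 21% O2, for 7 days. This order of steps is that of the study's methods, by whose account the samples of a group were biologically independent. The sample labels describe culture at either oxygen level with the sort at its end, so whether the groups shared the growth before the sort differs between these sources. The groups shared the α-MEM medium and the sort markers, and the oxygen level was the difference that the labels give. The libraries held from 12898291 to 25132141 counts, with hypoxia replicate 1 the deepest, and 3 counts corresponded to between 0.119 and 0.233 CPM (counts scaled to the library size) per library. The comparison addresses what exposure to atmospheric oxygen does to the transcription of MSCs.

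Secreted and membrane proteins enter the ER through the Sec61 channel, lose their signal peptide to the signal peptidase, and are folded by chaperones and by enzymes that form disulfide bonds. Chains that fail to fold are pulled back into the cytosol and destroyed, a route called ER-associated degradation (ERAD). When unfolded protein builds up, the sensors IRE1 (gene Ern1), ATF6 and PERK (gene Eif2ak3) start the unfolded protein response, in which ATF6 is cut to release a transcription factor and the Xbp1 mRNA is spliced by IRE1 into the form that encodes an active factor. Bone-forming cells secrete large amounts of collagen and load this pathway heavily. Gene counts show mRNA level alone, so that neither the cutting of ATF6, nor the splicing of Xbp1, nor the phosphorylation of IRE1 or PERK was measured, and in bulk RNA fewer cells of a type and less RNA per cell cannot be told apart.

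Many genes of this response carry an ER stress response element (ERSE) close to their start site, which reads CCAAT, then 9 bases of any kind, then CCACG; the first part is bound by NF-Y and the last by ATF6 or XBP1. The ERSE was originally defined on Hspa5, Hsp90b1 and Calr promoters, so its presence there is no new observation. RefSeq promoter windows of GRCm38.p6, each of 250 bases before to 50 bases after a start site, were found for 27 of the 34 members. They were searched on both strands for exact matches only. A complete ERSE was present in 9 of the 27 members (33.3%), against 37 of the 27025 genes with a window (0.137%). The members were chosen as genes of this response. An excess of the ERSE, or of the second form given below, was therefore to be foreseen and is no test. The matches are shown because the carriers include Hspa5 and Hsp90b1, which had the largest called increases, so the choice used the outcome. Of the 9 carriers 5 were called higher, beside 10 of all 34 members and 18% of all tested genes. Capitals mark the CCAAT and CCACG parts, and each is written 5′ to 3′ on the strand named:
Hspa5 at chr2:34772025-34772043 (plus strand): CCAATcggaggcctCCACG
Hsp90b1 at chr10:86705638-86705656 (minus strand): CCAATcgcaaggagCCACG
Hsp90b1 at chr10:86705533-86705551 (plus strand): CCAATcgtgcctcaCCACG
Dnajc3 at chr14:118937827-118937845 (plus strand): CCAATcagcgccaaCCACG
Canx at chr11:50325800-50325818 (minus strand): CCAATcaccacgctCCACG
Pdia6 at chr12:17266491-17266509 (plus strand): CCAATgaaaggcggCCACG
Calr at chr8:84847075-84847093 (plus strand): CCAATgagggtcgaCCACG
Creld2 at chr15:88819520-88819538 (minus strand): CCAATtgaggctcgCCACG
Syvn1 at chr19:6046532-6046550 (plus strand): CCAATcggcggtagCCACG
Derl3 at chr10:75893242-75893260 (minus strand): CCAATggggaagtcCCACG

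A second form, ERSE-II, reads ATTGG, 1 base and CCACG. It was present in 2 of the 27 members (7.41%) and in 12 of the 27025 genes (0.0444%). These matches, with both parts in capitals, were:
Dnajb11 at chr16:22857852-22857862 (plus strand): ATTGGcCCACG
Herpud1 at chr8:94386377-94386387 (plus strand): ATTGGgCCACG

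The element TGACGTGG, called UPRE, whose last 5 bases are the reverse complement of the CCACG part, was found in 0 of the 27 members and in 193 of the 27025 genes (0.714%). Of 80 further genes of the same pathways, 60 had a window. Among these 60 the UPRE was found in 5 (8.33%), the ERSE-II in 1 (1.67%) and the ERSE in 0. The Dnajb11 match lay just after the start site, and all other matches lay before it. To place the elements, the 250 bases before the start site of the pair of chaperone genes with the largest changes are given below with the matched 19 bases in capitals, beside those of Edem1, the ERAD gene with the largest called decrease among members with a window, which held none of the elements. Hsp90b1 carried a pair of ERSEs, the second one read on the opposite strand:
Hspa5 at chr2:34771840-34772089 (plus strand): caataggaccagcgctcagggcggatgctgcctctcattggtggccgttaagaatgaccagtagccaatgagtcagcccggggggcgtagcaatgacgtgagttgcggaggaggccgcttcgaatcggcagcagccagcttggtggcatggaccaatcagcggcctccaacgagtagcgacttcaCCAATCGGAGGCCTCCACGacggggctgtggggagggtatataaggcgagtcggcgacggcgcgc
Hsp90b1 at chr10:86705445-86705694 (minus strand): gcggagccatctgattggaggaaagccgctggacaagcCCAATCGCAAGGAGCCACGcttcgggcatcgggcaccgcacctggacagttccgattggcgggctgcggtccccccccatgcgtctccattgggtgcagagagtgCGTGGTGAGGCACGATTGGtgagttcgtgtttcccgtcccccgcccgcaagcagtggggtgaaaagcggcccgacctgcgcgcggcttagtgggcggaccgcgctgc
Edem1 at chr6:108828391-108828640 (plus strand): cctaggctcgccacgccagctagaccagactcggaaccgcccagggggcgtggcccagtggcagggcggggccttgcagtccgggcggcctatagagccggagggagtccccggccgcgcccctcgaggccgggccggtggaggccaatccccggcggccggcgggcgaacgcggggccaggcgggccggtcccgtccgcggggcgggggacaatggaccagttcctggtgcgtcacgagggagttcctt

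Upon exposure to normoxia, 10 of the 34 genes were higher and 8 were lower at an adjusted p below 0.05 (limma-trend, Benjamini-Hochberg over all tested genes), and 16 were not called. Over all tested genes 34.6% were called, 18% higher and 16.5% lower, so the 18 called members (52.9%) stand beside a comparison in which changes were frequent. The median log2 change of the members was 0.006 and that of all tested genes 0.005, which the scaling sets near 0. With samples scaled by total counts alone these medians were 0.095 and 0.089, and 13 members were called higher and 2 lower, where 25.1% of all genes were higher and 11% lower. Leaving out hypoxia replicate 3 reduced the members called lower from 8 to 4, where 1819 of 14596 genes were lower. Leaving out hypoxia replicate 4 reduced them to 5, where 1919 of 14601 genes were lower. The groups did not overlap for 11 members that were higher in normoxia and for 7 that were lower, against 17.1% and 15.5% of all tested genes. All 10 that rose were chaperones, disulfide isomerases, partners of Hspa5 or the sensor Atf6. The 8 that fell belonged to ERAD, to the Sec61 channel and the complex attached to it, or were Xbp1. A fit that paired samples by replicate number called 12 members higher and 9 lower, beside 23.3% and 22.7% of all genes, and the added calls were Calr and Creld2 (higher) and Os9 (lower).

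**Figure D1:**
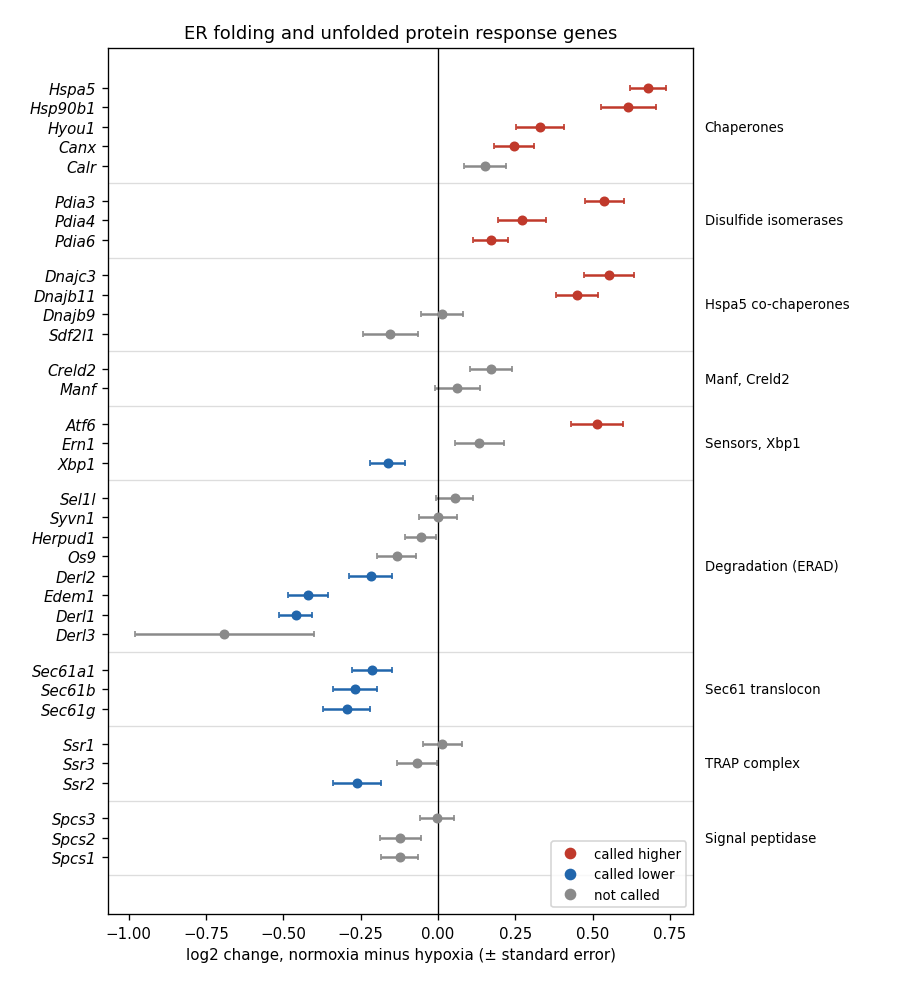
Log2 change (normoxia minus hypoxia, x axis) of each of the 34 genes, grouped by role, with bars for 1 standard error from limma-trend (4 samples a group). The chaperones and disulfide isomerases all lie above 0, the Sec61 subunits all lie below 0, and Derl3, with at most 12 counts in a library, has the widest error.

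Levels of the genes spanned a wide range, which is given here as CPM per kb of merged exon so that genes of different length can be compared. Calr was the highest with 547 ± 40.4 CPM per kb (mean ± SD over 8 samples), above 99.6% of tested genes. It was followed by Pdia3, with 237 ± 13.6 CPM per kb in hypoxia and 345 ± 13.4 in normoxia, and by Hspa5, with 184 ± 8.83 and 294 ± 4.97 (n = 4 each). The order of Pdia3 and Hspa5 rests on the exon lengths used. In CPM, without division by length, Hspa5 was the higher in hypoxia (776 against 745.5) and in normoxia (1243 against 1082). The sensors were far lower. Atf6 had 7.81 ± 1.59 and Ern1 4.57 ± 0.386 CPM per kb, above 67.2% and 54.5% of tested genes, while Derl3 had 0.228 ± 0.115 and was close to the limit of detection. Together the 34 genes took 0.857% to 0.937% of the counts in the hypoxia libraries and 1.07% to 1.14% in the normoxia libraries.

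Of the 5 chaperones, 4 rose in normoxia and none fell. Hspa5 encodes BiP, the central Hsp70 chaperone of the ER, which also holds the stress sensors inactive (chr2:34771970-34777547). Its level was 826, 779, 736 and 764 CPM in hypoxia replicates 1 to 4 and 1233, 1239.6, 1273 and 1225 CPM in normoxia replicates 1 to 4. Every normoxia sample lay above every hypoxia sample, by far more than the spread within either group. The means were 776 ± 37.4 and 1243 ± 21.0 CPM, an increase of 60.2% (log2 change 0.68 ± 0.059 SE, adjusted p = 3.8e-05).

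Hsp90b1 encodes GRP94, the Hsp90 chaperone of the ER (chr10:86690209-86705509). It was measured at 733, 691, 564 and 569 CPM in hypoxia and at 1037, 988.5, 938 and 934 CPM in normoxia. In both groups replicates 1 and 2 exceeded replicates 3 and 4, and the groups did not overlap. The log2 change was 0.62 ± 0.089 (adjusted p = 0.00039). Hyou1, a large Hsp70-type protein that assists BiP (chr9:44379490-44392369), had 242, 210, 207 and 184 CPM in hypoxia and 272, 250, 279.7 and 255 CPM in normoxia. Its rise was smaller, with a log2 change of 0.33 ± 0.078 (adjusted p = 0.0065).

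Calnexin (Canx) and calreticulin (Calr) are lectins that retain glycoproteins until they are folded. Canx rose from 683 ± 39.3 to 809 ± 48.3 CPM (log2 change 0.25 ± 0.065, adjusted p = 0.012) without overlap of the groups. Calr, the most abundant member, had 1492 ± 85.7 CPM in hypoxia and 1657 ± 77.9 CPM in normoxia. The Calr groups overlapped, because hypoxia replicate 1 (1616 CPM) lay above normoxia replicate 4 (1559 CPM), and its log2 change of 0.15 ± 0.069 was not called (adjusted p = 0.11). It was higher in normoxia in 4 of 4 pairs of equal replicate number and was called in the paired fit (adjusted p = 0.017), as it was when hypoxia replicate 1 was left out (adjusted p = 0.043).

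The 3 protein disulfide isomerases among the members, which form and rearrange disulfide bonds, all rose. Pdia3 (ERp57, the isomerase that works with Calr and Canx on glycoproteins, chr2:121413775-121438687) had 785, 774, 692 and 730.2 CPM in hypoxia and 1138, 1084, 1069 and 1037 CPM in normoxia. The groups were widely separated, and the log2 change was 0.54 ± 0.063 (adjusted p = 0.00013). Pdia4 rose from 331 ± 38.0 to 398 ± 11.8 CPM (log2 change 0.27 ± 0.077, adjusted p = 0.016). Pdia6 rose from 506 ± 19.8 to 569 ± 22.3 CPM (log2 change 0.17 ± 0.056, adjusted p = 0.033). The call for Pdia4 was lost without hypoxia replicate 3 (adjusted p = 0.052) or normoxia replicate 2 (0.054). That for Pdia6 was lost without any library other than hypoxia replicates 1 and 4, with adjusted p-values of 0.055 to 0.13. The isomerases P4hb and Pdia5, from the further genes, were chosen after their values were seen, and neither was called. P4hb had a log2 change of 0.18 ± 0.071 (adjusted p = 0.071) and was called higher in the paired fit (adjusted p = 0.005). Pdia5 had a log2 change of 0.002 ± 0.059 (adjusted p = 0.98).

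Among the 4 partners of BiP, 2 rose and 2 were not called. Dnajc3 (P58IPK, a J-domain protein that hands unfolded chains to BiP, chr14:118937976-118981697) had 161, 156, 123 and 132 CPM in hypoxia and 215, 214, 202 and 202 CPM in normoxia. Replicates 1 and 2 were again above replicates 3 and 4 in each group, and all normoxia samples exceeded all hypoxia samples (log2 change 0.55 ± 0.082, adjusted p = 0.00046). Dnajb11 (ERdj3, another J-domain partner, chr16:22857845-22879634) had 127, 111, 107 and 105 CPM in hypoxia and 154, 160.5, 156 and 143 CPM in normoxia. Its log2 change was 0.45 ± 0.068 (adjusted p = 0.00052). Dnajb9 (ERdj4), which restrains IRE1 and takes part in ERAD, had 51.1 ± 4.34 and 51.4 ± 1.08 CPM. Sdf2l1, which binds J-domain proteins, had 31.1 ± 3.62 and 27.8 ± 1.34 CPM (adjusted p = 0.20). The Dnajb9 and Sdf2l1 groups overlapped.

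**Figure D2:**
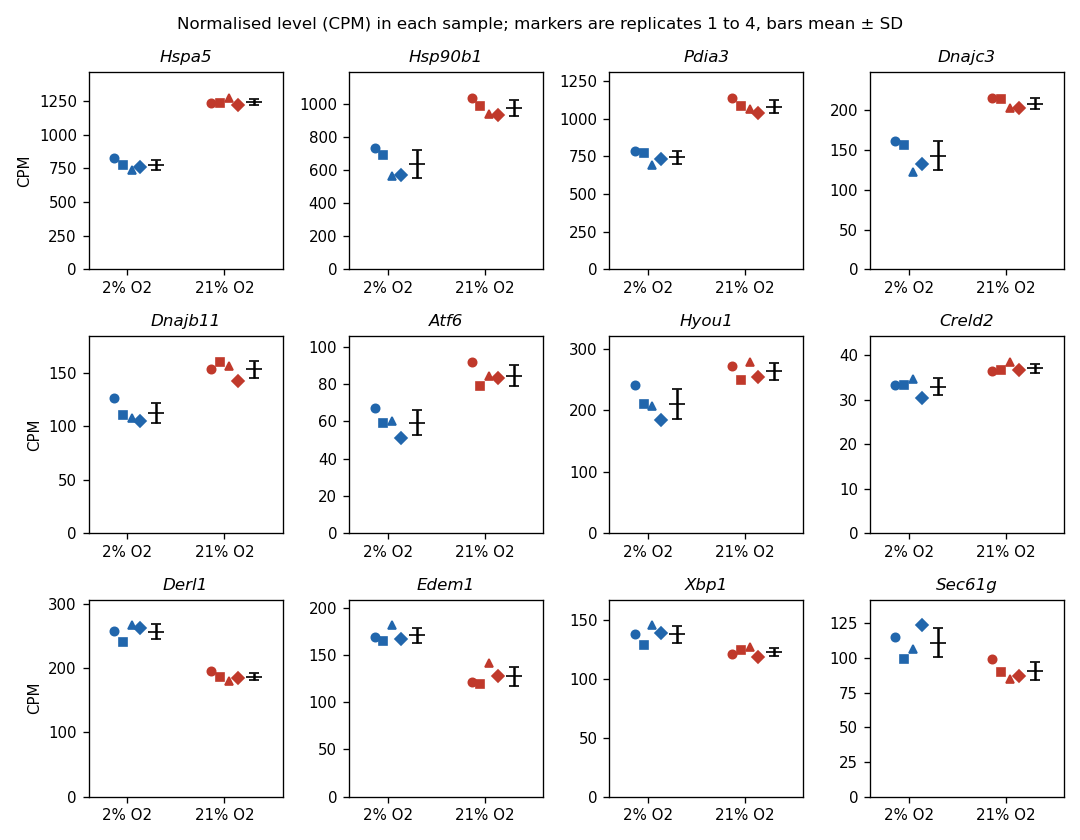
CPM of 12 of the genes in each of the 8 samples (circles, squares, triangles and diamonds are replicates 1 to 4), with mean ± SD beside each group and axes that start at 0. The first 8 genes, Hspa5 to Creld2, sit higher at 21% O2, and Derl1, Edem1, Xbp1 and Sec61g sit lower, with the Sec61g groups touching.

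Manf and Creld2 encode small ER proteins that are induced and in part secreted during ER stress. Creld2 (chr15:88819646-88826683) had 33.4, 33.4, 34.8 and 30.4 CPM in hypoxia and 36.5, 36.7, 38.6 and 36.8 CPM in normoxia. The groups did not overlap, but the log2 change of 0.17 ± 0.067 was not called without pairing (adjusted p = 0.066) and was called in the paired fit (adjusted p = 0.042). Manf had 118 ± 11.9 CPM in hypoxia and 122 ± 6.62 CPM in normoxia, with overlapping groups and a log2 change of 0.06 ± 0.073.

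The sensors and Xbp1 did not move together. Atf6 (chr1:170704674-170867771) had 67.4, 59.0, 60.3 and 50.9 CPM in hypoxia and 92.2, 78.9, 84.3 and 83.6 CPM in normoxia. All normoxia samples were above all hypoxia samples, an increase of 43.0% (log2 change 0.52 ± 0.084, adjusted p = 0.00075). Ern1 (chr11:106394650-106487852) had 40.0, 35.3, 36.2 and 31.2 CPM in hypoxia and 38.8, 37.1, 41.1 and 39.2 CPM in normoxia. These groups overlapped and the log2 change of 0.13 ± 0.080 was not called (adjusted p = 0.22).

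Xbp1 (chr11:5520659-5525893) was lower in normoxia. It had 138, 129, 146 and 139 CPM in hypoxia and 122, 124.5, 127 and 119 CPM in normoxia, a drop without overlap in which normoxia replicate 3 came closest to hypoxia replicate 2. The log2 change was -0.16 ± 0.056 (adjusted p = 0.038). Leaving out any 1 library other than hypoxia replicate 2 ended the call, with adjusted p-values of 0.053 to 0.11. Scaling by total counts ended it too (log2 change -0.08, adjusted p = 0.33).

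Among the 8 ERAD genes, 3 fell, none rose and 5 were not called, where 16.5% of all tested genes fell and 18% rose. This direction did not extend to the 15 further ERAD genes described below, of which 5 rose and 1 fell. Derl1 encodes Derlin-1, a channel component that passes misfolded proteins back to the cytosol (chr15:57869502-57892448). It had 257, 241, 267 and 263 CPM in hypoxia and 195, 186, 180.5 and 185 CPM in normoxia. The separation was large against the spread, a decrease of 27.3% (log2 change -0.46 ± 0.054, adjusted p = 0.00013). Edem1 (chr6:108828641-108859356), a mannosidase-like protein that marks misfolded glycoproteins for degradation, had 169, 164, 181 and 167 CPM in hypoxia and 122, 119, 141 and 128 CPM in normoxia. Replicate 3 was the highest in both groups, and the decrease was 25.3% (log2 change -0.42 ± 0.065, adjusted p = 0.00055). Derl2, a second Derlin, had 71.6, 65.1, 73.6 and 81.4 CPM in hypoxia and a lower 60.6, 62.7, 63.3 and 63.5 CPM in normoxia (log2 change -0.22 ± 0.070, adjusted p = 0.030). The Derl2 call was lost on leaving out hypoxia replicate 3 or 4 or normoxia replicate 1, 2 or 3, with adjusted p-values of 0.055 to 0.084, and with scaling by total counts (log2 change -0.13, adjusted p = 0.20).

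The ubiquitin ligase Syvn1 (HRD1) and its partners were not called. Syvn1 had the same mean of 56.2 CPM in both groups, with SDs of 2.61 and 2.41. Sel1l, which stabilises Syvn1, had 275 ± 20.6 and 285 ± 4.37 CPM, and Herpud1, which organises the ligase complex, had 126 ± 2.80 and 122 ± 3.09 CPM. Os9, a lectin that delivers glycoproteins to the ligase, had 239 ± 17.2 CPM in hypoxia and 217 ± 9.42 CPM in normoxia. Os9 was not called without pairing (log2 change -0.13 ± 0.063, adjusted p = 0.12) and was called lower with it (adjusted p = 0.036). Derl3, the third Derlin, was barely detected, with 10, 7, 7 and 12 counts in hypoxia and 5, 3, 3 and 5 counts in normoxia. Its fitted log2 change of -0.69 ± 0.29 was not called (adjusted p = 0.085), and at this depth no size can be given for it.

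All 3 subunits of the Sec61 channel fell, although scaling by total counts left none of the 3 called. Sec61g (chr11:16500530-16508484), the gamma subunit, had 115, 99.3, 106 and 123.5 CPM in hypoxia and 99.4, 90.0, 85.1 and 86.7 CPM in normoxia. The groups touched, since normoxia replicate 1 was level with hypoxia replicate 2, and the log2 change was -0.30 ± 0.076 (adjusted p = 0.011). Sec61b fell from 98.1 ± 9.86 to 81.1 ± 1.22 CPM (log2 change -0.27 ± 0.072, adjusted p = 0.013). Sec61a1, which forms the pore, fell from 253 ± 21.5 to 217 ± 7.99 CPM (log2 change -0.21 ± 0.065, adjusted p = 0.024), a call lost without hypoxia replicate 3 (0.056) or normoxia replicate 4 (0.057).

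Of the 3 genes of the translocon-associated protein (TRAP) complex among the members, 1 fell. Ssr2 (chr3:88575876-88588419) had 119, 101, 125 and 132 CPM in hypoxia and 94.0, 99.7, 105 and 97.7 CPM in normoxia. Hypoxia replicate 2 lay below normoxia replicate 3, so that the groups overlapped, and the log2 change of -0.26 ± 0.078 was called (adjusted p = 0.021) with all libraries but not without hypoxia replicate 3 (0.065) or 4 (0.066), nor with scaling by total counts (log2 change -0.17, adjusted p = 0.12). Ssr1 had 425 ± 26.1 and 429 ± 23.6 CPM, and Ssr3 had 586 ± 35.8 and 559 ± 34.1 CPM. Ssr4, another subunit of the complex, is among the further genes and was chosen after its values were seen. It fell from 177 ± 16.1 to 129.5 ± 4.17 CPM without overlap (log2 change -0.45 ± 0.068, adjusted p = 0.00052).

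None of the 3 signal peptidase genes among the members was called. Spcs1 (chr14:30999826-31001672), which had the smallest p of the 3, was measured at 148, 140.1, 150.4 and 164 CPM in hypoxia and at 143, 139, 135 and 136 CPM in normoxia. The groups overlapped (log2 change -0.12 ± 0.059, adjusted p = 0.12). Spcs2 had 115 ± 9.78 and 106 ± 2.64 CPM, and Spcs3 had 99.3 ± 4.48 and 99.0 ± 3.58 CPM. Sec11a and Sec11c, other subunits of this enzyme, are among the further genes and were chosen after their values were seen. Sec11a fell from 97.2 ± 8.36 to 76.2 ± 1.64 CPM without overlap (log2 change -0.35 ± 0.067, adjusted p = 0.002). Sec11c was not called (log2 change 0.22 ± 0.11, adjusted p = 0.13).

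Read against the promoter matches, the ERSE was present in 5 of the 8 members called higher that had a window (Hspa5, Hsp90b1, Dnajc3, Canx and Pdia6), in 0 of the 5 called lower and in 4 of the 14 not called. With the paired calls the counts were 7 of 10 higher and 0 of 6 lower, Calr and Creld2 being the additions. The remaining carriers, Syvn1 and Derl3, were not called in either fit, and Pdia3 and Pdia4 rose with no exact ERSE in their windows. Partial matches were not counted, and the windows were not searched for them as a set. The Pdia3 window held CCAAT, 9 bases and CCACA, which differs from the ERSE in its last base. A window of Derl2, which was called lower, held the same variant on the opposite strand. No window was found for 7 members, Atf6, Derl1, Hyou1, Manf, Sec61a1, Spcs3 and Ssr2. Among the carriers, the Canx call ended with the correction described below, and the Pdia6 call was lost without most single libraries. A match of letters is a description of the window, and no binding was measured here. Whether the element had a part in these changes was not tested.

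The base composition of transcripts moved with the groups. In each sample, the deviation of a gene from its mean over samples was regressed on its GC content, and the slope lay between 0.074 and 0.18 log2 units per 10 percentage points of GC in the hypoxia samples and between -0.14 and -0.086 in the normoxia samples. Across all tested genes the log2 change had a Spearman correlation of -0.387 with GC content, and across the 34 members one of -0.305. With transcript length the correlations were 0.171 and 0.372. These are given as a description over genes measured in the same 8 libraries. Since the slopes separate the groups, an effect of library composition and one of oxygen on GC-rich transcripts cannot be told apart. After a correction for GC content and transcript length, 10 members were higher and 9 lower, beside 15.1% and 14.4% of all genes.

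The correction left Hspa5, Hsp90b1, Hyou1, Pdia3, Pdia4, Pdia6, Dnajb11, Dnajc3, Atf6, Derl1, Derl2, Edem1 and Sec61g on the side reported. Hspa5 changed from 0.68 to 0.54 on the log2 scale and Derl1 from -0.46 to -0.49. Dnajc3 fell by more, to 0.36, and the decrease of Derl2 grew to -0.42. The calls for Canx (log2 change 0.04, adjusted p = 0.68), Xbp1 (-0.07, adjusted p = 0.30), Sec61b (-0.02, adjusted p = 0.83), Ssr2 (-0.06, adjusted p = 0.47) and Sec61a1 (-0.13, adjusted p = 0.17) ended.

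After the correction the signal peptidase subunits Spcs1, Spcs2 and Spcs3 were called lower, with log2 changes of -0.26 for Spcs1 (adjusted p = 0.0023), -0.20 for Spcs2 (0.040) and -0.23 for Spcs3 (0.0077). Ssr3 (-0.28, adjusted p = 0.0056) and Dnajb9 (-0.19, 0.042) were called lower too, and Creld2 was called higher (0.34, 0.0034). With the correction and the pairing together, 11 members were higher and 11 lower, where 21.7% and 21.5% of all genes were, and Calr (0.17, adjusted p = 0.002), Sec61a1 (-0.13, 0.015) and Ssr1 (-0.12, 0.042) joined the calls.

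**Figure D3:**
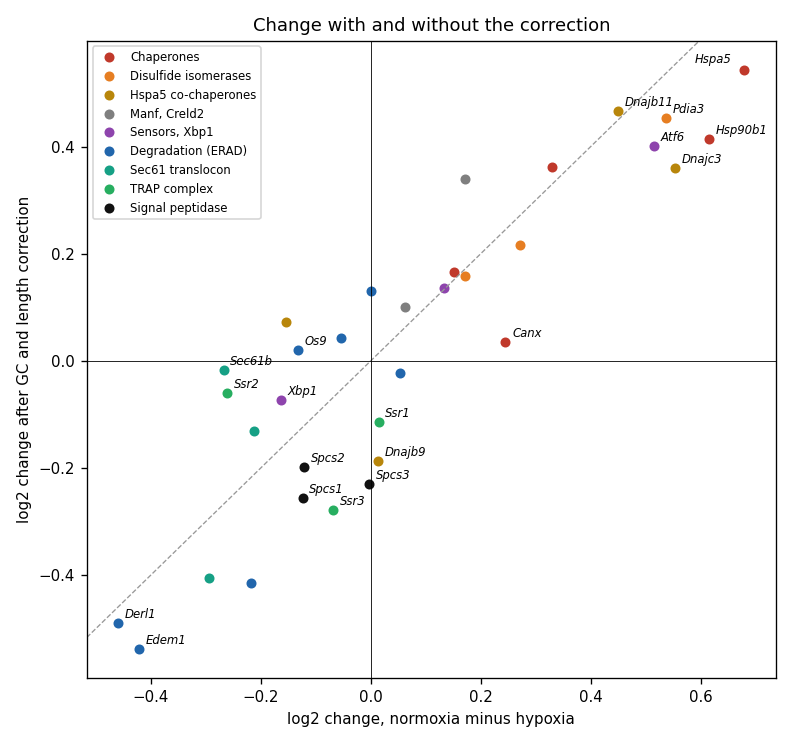
Log2 change of 33 genes (all but Derl3) as fitted (x axis) and after correction for GC content and transcript length (y axis), coloured by role, with a dashed line where both are equal. Hspa5, Hsp90b1, Pdia3, Dnajb11, Dnajc3 and Atf6 keep changes of 0.36 or more after correction, Canx, Sec61b, Ssr2 and Xbp1 move close to 0 on the y axis, and Spcs1, Spcs2, Spcs3 and Ssr3 move down.

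A further 80 genes of ER import, glycosylation, folding, degradation and stress signalling, all of them tested, were examined beside the 34. Of these, 23 were higher and 13 lower in normoxia, with a median log2 change of 0.09. Over all tested genes 18% were higher and 16.5% lower, so the lower share lay at the background. With pairing the counts were 32 and 18, beside 23.3% and 22.7% of all genes. Among 14 further chaperone factors 7 rose and 1 fell, among 14 further oxidoreductases 2 rose and 1 fell, and among 15 further ERAD genes 5 rose and 1 fell. Of 14 genes of the signal recognition particle and other translocation factors 6 rose and 3 fell, and of 12 oligosaccharyltransferase genes 1 rose and 4 fell.

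Sec63, a J-domain protein that couples Sec61 to BiP, rose from 107 ± 15.1 to 167 ± 10.3 CPM (log2 change 0.65 ± 0.091, adjusted p = 0.00034). Its partner Sec62 rose from 164 ± 20.1 to 226 ± 11.7 CPM (log2 change 0.47 ± 0.082, adjusted p = 0.0011, and 0.26 after the GC and length correction). The Sec61 subunits thus changed in the opposite direction to Sec62 and Sec63 in the fit without correction. This did not hold for every translocation factor. Tram1, chosen after its values were seen, fell from 169 ± 6.44 to 134 ± 4.99 CPM (log2 change -0.33 ± 0.054, adjusted p = 0.00075), as did Ssr4 above. Tmx3, a membrane-bound isomerase, rose from 54.7 ± 0.76 to 73.1 ± 1.43 CPM (log2 change 0.42, adjusted p = 0.00019), and the correction reduced this to 0.17 (adjusted p = 0.047). Ubxn4, a membrane adaptor of the ATPase that extracts ERAD substrates, rose from 62.6 ± 5.86 to 99.7 ± 3.59 CPM (log2 change 0.68, adjusted p = 8.6e-05). Krtcap2, an oligosaccharyltransferase subunit, fell from 130.0 ± 11.7 to 84.5 ± 3.05 CPM (log2 change -0.62, adjusted p = 0.00011). Kdelr1, a receptor that returns escaped chaperones to the ER and was chosen after its values were seen, fell from 234 ± 10.5 to 153 ± 4.71 CPM (log2 change -0.61, adjusted p = 4.3e-05).

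In the PERK arm and among other sensors, 2 of 11 genes rose and 3 fell, beside 18% and 16.5% of all tested genes. Eif2ak3 (PERK) had 31.0, 32.2, 26.4 and 23.3 CPM in hypoxia and 36.4, 39.5, 35.3 and 35.7 CPM in normoxia, a rise without overlap (log2 change 0.39 ± 0.099, adjusted p = 0.010). Ppp1r15a, the phosphatase subunit that reverses PERK signalling, chosen after its values were seen, rose from 27.4 ± 3.79 to 36.8 ± 2.70 CPM (log2 change 0.43 ± 0.10, adjusted p = 0.0058). The transcription factors Atf4 and Ddit3 were not called. Atf4 had 227 ± 18.2 and 241 ± 6.84 CPM (log2 change 0.09, adjusted p = 0.28), although the GC and length correction gave 0.25 (adjusted p = 0.014), and Ddit3 (CHOP) had 44.3 ± 3.12 and 47.3 ± 4.91 CPM (log2 change 0.09, adjusted p = 0.43). Trib3, a pseudokinase induced by ATF4 and CHOP, fell from 135 ± 5.73 to 84.2 ± 2.07 CPM (log2 change -0.68 ± 0.054, adjusted p = 2.7e-05), with no overlap between the groups.

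**Figure D4:**
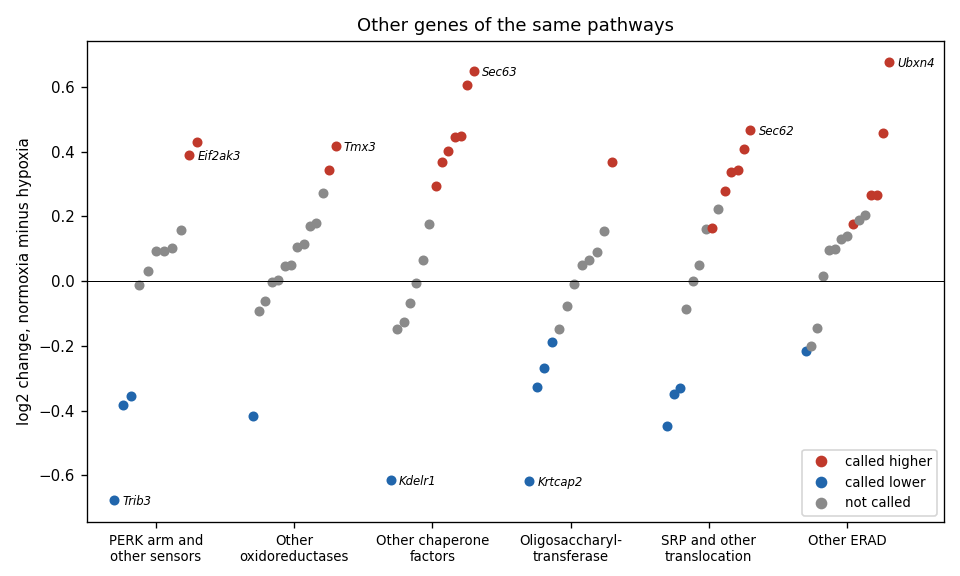
Log2 change (normoxia minus hypoxia) of 80 further genes of the same pathways, in 6 groups and ordered by value within each, with calls in colour. The PERK arm and the oligosaccharyltransferase group reach down to Trib3 (-0.68) and Krtcap2 (-0.62), and the largest rises are Ubxn4 (0.68) and Sec63 (0.65).

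Markers of other cells were checked because secretory cell types differ in ER content. The markers named here were chosen after their values were seen. Of 6 erythroid markers 4 were at 0 in every library and the sum reached at most 0.231 CPM. The plasma cell genes Mzb1, Igkc and Tnfrsf17 were at 0, and of 7 plasma cell markers Sdc1, which other cells also express, was the single one tested (log2 change 0.31, higher). The 5 endothelial markers summed to 1.93 to 3.44 CPM. Blood cell markers were detected in spite of the sort, with sums over 6 genes of 467 to 922 CPM in hypoxia and 580.4 to 1078 CPM in normoxia, none at 0. Lyz2 was called higher (log2 change 0.56), and 4 of the 6 had changes below 0 without a call (Csf1r -0.59, Itgam -0.46, Cd68 -0.28 and Adgre1 -0.11). The paired fit called Csf1r (adjusted p = 6.7e-09), Itgam (0.0011) and Cd68 (0.0028) lower and Lyz2 higher. Of 7 osteoblast markers, 6 were tested and 3 were lower in normoxia (Sp7, Alpl and Col1a1), where 16.5% of all tested genes were. With pairing 4 were lower, where 22.7% of all genes were. The 7 summed to 49962 to 58554 CPM in hypoxia and 30508 to 33119 CPM in normoxia, nearly all of it the collagen gene Col1a1. Of 10 MSC markers, all were detected, and 2 were higher and 1 lower, beside 18% and 16.5% of all tested genes. With pairing 4 were higher and 5 lower, beside 23.3% and 22.7%, among them Cd44 (log2 change 0.72, higher) and Thy1 (log2 change -0.41, lower in 4 of 4 pairs). Their sums were 4179 to 5090.3 CPM in hypoxia and 4498 to 4908 CPM in normoxia. The part of blood cells or of the lower osteoblast genes in the changes of the 34 genes was not tested.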

How the data were processed

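Total RNA of 4 hypoxia and 4 normoxia samples was made into libraries with a NEBNext Ultra II kit and sequenced as single-end reads. The authors aligned and counted reads with zUMIs, STAR and featureCounts on mm10 (GRCm38) with an Ensembl annotation, and deposited whole-number counts per gene. Strand and multiple-mapping settings are not given in the sources used here, so that reads of near-identical copies or of overlapping genes may be split. The spans of 4 members (Manf, Syvn1, Derl2 and Spcs1) overlap another gene with at least 1000 counts.

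Following the study's methods, genes were filtered with filterByExpr (minimum count of 5) and tested with limma-trend (limma 3.58.1, R 4.3.3). The TMM scaling (edgeR 4.0.16), the prior count of 3 on log2 CPM and the fit without a block were chosen here, with Benjamini-Hochberg adjustment over all genes and calls made below 0.05. A positive log2 change means a higher level in normoxia. Fitted steps were tested on simulated data. Replicate numbers were taken to pair samples: the methods divide a sorted population, and deviations from group means correlated at 0.47, 0.28, 0.25 and 0.17 for equal numbers. GC content and length came from GENCODE M21 and were corrected with natural splines (5 degrees of freedom each). Gene coordinates are GRCm38 from GENCODE, and symbols were matched for 53274 of 53465 identifiers. The rest held 0.0216% of counts and stayed in.

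The members and lists were chosen with earlier results of these data known. Values in every sample are given for Hspa5, Ern1, Xbp1, Atf6, every called member among the 10 largest changes, and the member of smallest p in each role; of the further genes, the called gene of largest change in each group and Eif2ak3, Atf4 and Ddit3 are named. Alternatives were edgeR's quasi-likelihood test, DESeq2 1.42.0, voom, other scalings, filters, prior count and threshold, pairing, the correction, and each library left out; leaving the 34 genes out of the TMM factors was added after seeing the data.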

Additional observations from a re-analysis of the deposited data

Results flagged for a closer look

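The log2 CPM of 68 sets of 4 replicates (34 genes in each of both groups) were searched with Dixon's ratio of the gap over the range. In 3 sets a sample lay beyond the 95% critical value, where chance alone gives about 3.4. The ratios below are on the log2 scale, and the levels beside them are in CPM. For Manf in hypoxia, replicate 1 (135 CPM) stood above the other samples (110.1 to 113 CPM), with a ratio of 0.872. For Creld2 in normoxia, replicate 3 (38.6 CPM) stood above the others (36.5 to 36.8 CPM), with a ratio of 0.849. For Herpud1 in normoxia, replicate 2 (117 CPM) stood below the others (123 CPM each), with a ratio of 0.902.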

How the results depend on the processing

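Of 18 called members, 9 (Atf6, Derl1, Dnajb11, Dnajc3, Edem1, Hsp90b1, Hspa5, Hyou1 and Pdia3) kept call and direction in all 21 alternatives. Leaving out 1 library gave 8 to 11 members higher, 4 to 9 lower and a median log2 change of -0.021 to 0.026. In these fits 2019 to 2853 of all tested genes (14583 to 14625) were higher and 1819 to 2570 lower. Total count scaling gave 13 members higher, 2 lower, a median of 0.095 and 42 further genes higher, where 25.1% of all genes were higher and 11% lower. A threshold of 0.01 gave 7 members higher and 2 lower, where 1546 of 14369 genes were higher and 1379 lower. The median was -0.007 with DESeq2 and -0.004 with RLE scaling. Pairing with the GC and length correction called 21 further genes lower, where 21.5% of all genes were. The replicate block changed the calls of Calr, Creld2 and Os9 (12 members higher, 9 lower) and no other member's call. Uncalled members near 0 changed sign. With the correction, alone or with the block, Dnajb9 was at -0.187, Herpud1 at 0.042, Os9 at 0.02, Sdf2l1 at 0.072, Sel1l at -0.023 and Ssr1 at -0.115. With total count scaling Herpud1 was at 0.033, Spcs3 at 0.085 and Ssr3 at 0.02. DESeq2 gave Dnajb9 -0.002 and Syvn1 -0.012. Syvn1 was also at -0.001 with edgeR and with a minimum count of 20, -0.002 with voom, -0.01 with RLE and 0 without a filter. Without 1 library, Dnajb9 ranged from -0.019 to 0.065, Spcs3 from -0.031 to 0.028, Ssr1 from -0.036 to 0.057 and Syvn1 from -0.031 to 0.023. The cause of these changes was not tested. Xbp1 (adjusted p = 0.068) and Pdia6 (0.094) were not called without a filter on low counts. Leaving the members out of the TMM factors, chosen after seeing the data, gave the same 10 and 8 calls in number. Depth limits Derl3 (3 to 12 counts), for which a minimum count of 20 left no value.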
